A study of Mus musculus with 6 samples.

Results

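The data described here are the levels of 10 genes of fat cells in RNA from mouse aortic vessels, in mice that lack miRNA-26b and in mice that carry it. The genes were given by name: Adipoq, Lep, Cfd and Retn, which encode secreted adipokines; Plin1 and Lipe, which act at the lipid droplet; Lpl, Cd36 and Fabp4, which serve fatty acid supply; and Pparg, the transcription factor of fat cell differentiation. All 10 were found among the 55341 genes of the count table, and all 10 were among the 16017 genes with enough counts to be tested.

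RNA was sequenced as 1 library per mouse from 3 miRNA-26b-/- mice (libraries M2626, M2627 and M2628) and 3 miRNA-26b+/+ mice (M2629, M2630 and M2631), all aged 8 weeks and on chow. The miRNA-26b-/- line lacks both strands of the miRNA: in 129/Sv embryonic stem cells the hairpin inside an intron of Ctdsp1 was flanked by loxP sites, it was deleted with tamoxifen in mice carrying CreERT2, and the Cre was then bred out. The strain is given as C57BL/6NCrl in the labels and as C57BL/6 in the methods, while the founders of the line are described as mixed 129/Sv-C57BL/6. The labels call the control mice naive; whether they received tamoxifen is not given in the sources used here. By the methods the tissue was the arch and the thoracic part of the aorta, taken after perfusion with saline, whereas the labels speak of aortic endothelial cells.

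White fat cells store triglyceride in 1 large lipid droplet and release fatty acids from it, and they secrete adipokines such as adiponectin and leptin into the blood. The aorta lies in a sheath of perivascular adipose tissue, which around the mouse thoracic aorta resembles brown fat, and fat cells, their progenitors and capillaries of this sheath can come away with the vessel at dissection. PPARG, paired with a retinoid X receptor, switches on most of the genes described here. Lipoprotein lipase, CD36 and FABP4 are also made outside fat cells, FABP4 and CD36 above all by capillary endothelium and macrophages. Fabp4, Cd36, Lpl and Pparg are therefore not restricted to fat cells. Adipoq, Lep, Plin1, Cfd, Retn and Lipe were grouped here as more restricted to them. Whether other cells of the samples also made these was not tested.

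The libraries held 25706728 to 33345037 counts, with 17744 to 19287 genes detected in each, and TMM factors, which correct for library size and composition, lay between 0.982 and 1.015. Mir26b itself had 0 counts in all libraries but M2630 (miRNA-26b+/+), which had 20, too few to check the genotypes in these libraries of long RNA. The summed level of 10 smooth muscle genes was 34330 to 45800 CPM (counts scaled to the size of the library), whereas that of 10 genes of all endothelium was 583.7 to 2157 CPM, so the libraries hold the vessel wall rather than endothelial cells alone. In M2626 and M2627, both miRNA-26b-/-, the endothelial sum was 583.7 and 593.9 CPM, and in the other 4 libraries it was at least 1524 CPM. M2627 also stood apart in 10 genes of sympathetic neurons, with a sum of 495.3 CPM against 74.89 to 162.4 CPM elsewhere, and in 5 erythroid genes, with 85.56 CPM against 354 to 929.1 CPM. The sum of 10 Schwann cell genes did not overlap between the genotypes, at 428 to 608.9 CPM in miRNA-26b-/- and 260.5 to 345.8 CPM in miRNA-26b+/+ mice. Of the 9 tested, 7 were higher and 1 lower in miRNA-26b-/- mice at an unadjusted p-value under 0.05 with edgeR, beside 6.47% of all genes. Likewise 6 of 8 fast skeletal muscle genes were higher at that threshold. Their sum was 94.82 CPM in M2627, 35.71 CPM in M2626 and at most 13.21 CPM in the other 4 libraries. Of the 8 sympathetic neuron genes tested, 3 were higher too. In none of these lists did a gene have an adjusted p-value under 0.05. Fewer fat cells and less RNA per fat cell cannot be told apart in such bulk libraries.

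The miRNA deleted here and its close relative, which the miRNA-26b-/- mice keep, share a seed, the stretch that pairs with target mRNAs. Their mature 5p sequences from RefSeq are given 5′ to 3′, with the seed, bases 2 to 8, in capitals. That of miR-26b-5p lies on the forward strand at chr1:74394324-74394344 of GRCm38.p6, and miR-26a-5p comes from 2 loci on chromosomes 9 and 10.
miR-26b-5p: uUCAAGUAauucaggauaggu
miR-26a-5p: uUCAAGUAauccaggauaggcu
Seed matches were sought in the longest annotated 3′ untranslated region of each gene as TACTTGAA, TACTTGA or ACTTGAA, on the transcribed strand, where the first holds both others. Of the 10 adipocyte genes, 1 had a match, Lpl, and of all 20998 genes with such a region 3845 had one, which is 18.3%. The site in Lpl covers bases 658 to 664 of a region of 2429 bases and is shown with its flanks, the match in capitals.
Lpl site: attcttaatagACTTGAAtttttatgactt
None of the 10 had the full 8-base match, which 4.2% of all genes had. In Cfd the region searched was only 69 bases long, and in Pparg 204, where the median over all genes was 962. A match is a description of the letters and does not show that the miRNA acts there.

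The promoters of 3 of the genes are shown: Adipoq and Plin1, whose levels ran nearly in parallel across the libraries, and Lep, which followed them least. Lipe, whose promoters are described but not shown, ran closer still to Adipoq. Whether the motifs bear on the levels was not tested. Each runs from 250 bases before to 50 after the transcription start in RefSeq (GRCm38.p6), 5′ to 3′ along the gene. The 32851 promoters of the table included 11 of 8 of the 10 genes; Fabp4 and Lpl were not among them. Capitals mark 4 motifs searched on both strands: CCAAT, the half-site AGGTCA of nuclear receptors, the C/EBP motif TTGCNNAA and the TATA box TATAAA.
Adipoq, chr16:23146286-23146585, forward strand: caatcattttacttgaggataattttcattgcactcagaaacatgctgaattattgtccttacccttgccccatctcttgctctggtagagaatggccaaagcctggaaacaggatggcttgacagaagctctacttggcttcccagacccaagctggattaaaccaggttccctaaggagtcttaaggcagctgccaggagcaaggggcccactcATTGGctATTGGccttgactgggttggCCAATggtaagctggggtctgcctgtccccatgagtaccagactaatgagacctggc
Plin1, chr7:79732727-79733026, reverse strand: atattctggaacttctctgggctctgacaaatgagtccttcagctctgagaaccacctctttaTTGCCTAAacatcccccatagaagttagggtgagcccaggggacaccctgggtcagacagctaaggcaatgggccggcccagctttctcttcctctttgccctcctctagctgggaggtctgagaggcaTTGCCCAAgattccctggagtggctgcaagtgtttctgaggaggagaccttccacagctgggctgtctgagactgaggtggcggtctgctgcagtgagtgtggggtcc
Lep, chr6:29059971-29060270, forward strand: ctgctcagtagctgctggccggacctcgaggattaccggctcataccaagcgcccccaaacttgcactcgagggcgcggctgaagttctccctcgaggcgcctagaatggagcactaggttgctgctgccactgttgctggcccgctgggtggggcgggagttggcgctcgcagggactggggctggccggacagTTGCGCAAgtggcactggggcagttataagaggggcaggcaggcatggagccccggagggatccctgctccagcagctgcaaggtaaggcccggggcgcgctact
In the Adipoq promoter the capitals mark 3 CCAAT motifs, in that of Plin1 2 C/EBP motifs and in that of Lep 1. The C/EBP motif was present in 3 of the 11 promoters (of Lep, Plin1 and Pparg) and in 10.8% of all promoters. CCAAT was present in 4 of the 11 (of Adipoq, Cd36 and Pparg) and in 37.4% of all promoters. AGGTCA was present in 3 of the 11 (of Cd36 and Pparg) and in 16.3% of all promoters, TATAAA in 1 (of Pparg) and in 13.6%. Neither promoter of Lipe, nor those of Cfd and Retn, held any of the 4 motifs in this window.

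All 10 genes were detected in every library, from 64 counts of Lep in M2631 to 38406 counts of Cfd in M2627. Their levels per kilobase were compared over the length of the transcript with the longest coding sequence, since the exons of all annotated transcripts of Fabp4 and Lpl together are far longer. Cfd, with a mean of 634.9 CPM per kb, and Fabp4, with 561.0 CPM per kb, were the most abundant, and their order held in 5 of 6 libraries. Adipoq followed with 81.67 CPM per kb and Lpl with 77.38, in this order in 4 of 6 libraries. Cd36 had 45.6 CPM per kb, Plin1 37.49, Lipe 30.02 and Retn 29.91. Cd36 was above Plin1 in 4 of 6 libraries and Lipe above Retn in 3 of 6, so these neighbours were not separated. Pparg (9.639 CPM per kb) and Lep (1.866 CPM per kb) were lowest in all 6 libraries. On the union of all annotated exons, the length in the count table, Fabp4 had a mean of only 112 CPM per kb and Lpl 30.39, below Cd36 with 43.18; Cfd stayed first and Lep last.

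The levels differed between mice of the same genotype by more than they differed between the genotypes. No gene of the 10 passed the test between miRNA-26b-/- and miRNA-26b+/+ mice (edgeR's quasi-likelihood test with Benjamini-Hochberg adjustment over all genes tested, adjusted p from 0.806 to 0.997). Over all genes 1 of 16017 had an adjusted p-value under 0.05, which is 0.00624%. At an unadjusted p-value under 0.05 the count was 0 of the 10, against 6.47% of all genes tested. The 2 groups overlapped for each of the 10 genes, whereas they did not overlap for 11.5% of all genes. All 10 log2 fold changes were above 0, with a median of 0.21 beside 0.0125 over all genes, but the genes share their libraries and this is 1 pattern rather than 10 independent ones. Without M2627 the log2 fold changes of 8 of the 10 were below 0. Those of Adipoq, Plin1, Fabp4, Pparg, Cd36 and Lipe were also below 0 without M2631. The exact permutation test of single genes, two-sided, gave p-values from 0.4 to 1, where 3 mice against 3 cannot go below 0.1.

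**Figure D1:**
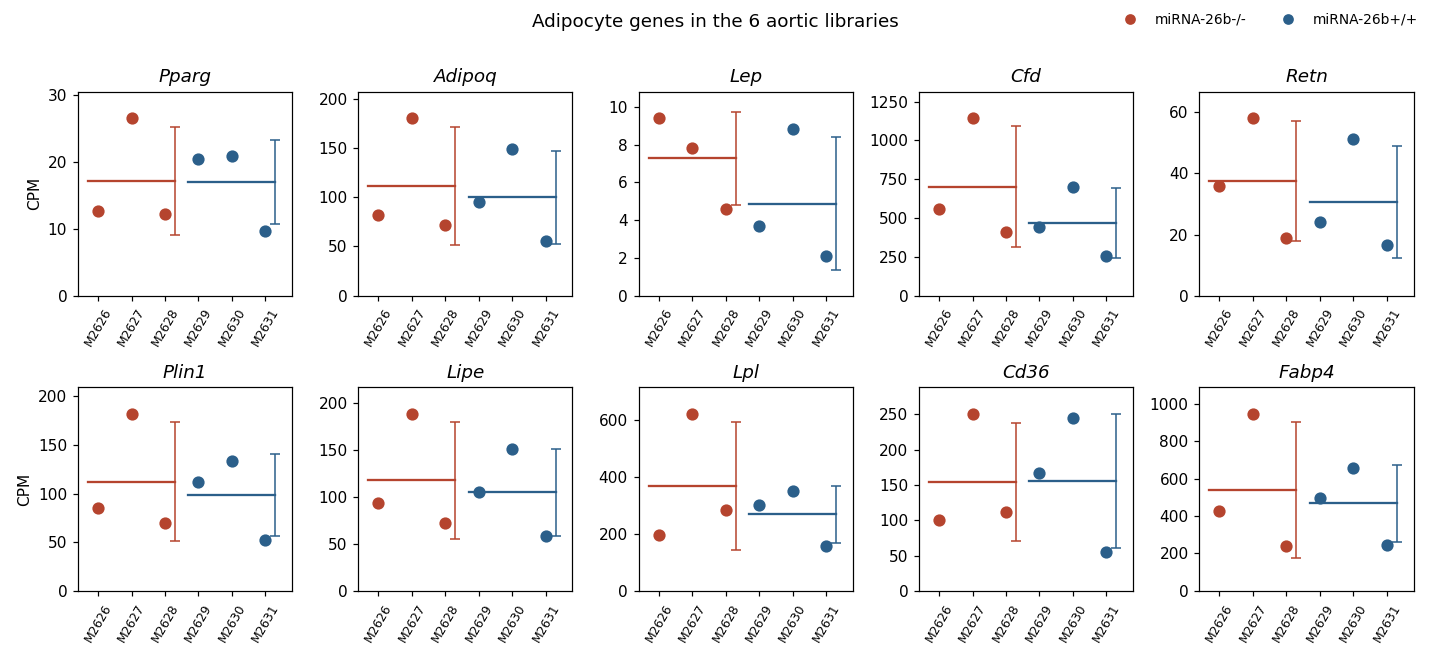
CPM of each of the 10 genes (vertical axis, starting at 0, with its own scale in each panel) in each library (horizontal axis); horizontal lines are group means and bars 1 SD over 3 mice. M2627 and M2630, 1 of each genotype, stand highest in 9 of the 10 panels, and the groups overlap in all 10.

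Adipoq encodes adiponectin, an adipokine made by fat cells. Its level was 81.6, 180.2 and 72.2 CPM in M2626, M2627 and M2628 (miRNA-26b-/-), and 94.85, 148.9 and 55.38 CPM in M2629, M2630 and M2631 (miRNA-26b+/+), the order kept for all genes below. One library of each genotype was high, M2627 and M2630, and the other 4 lay between 55.38 and 94.85 CPM. The means were 111 ± 59.8 and 99.7 ± 47.0 CPM (SD, n = 3 each), and the log2 fold change was 0.18 with a 95% interval from -0.54 to 0.91 (SE 0.34, edgeR adjusted p = 0.966).

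Lep encodes leptin, the hormone that reports fat stores to the brain. It was the least abundant of the 10, at 9.405, 7.83 and 4.603 CPM in miRNA-26b-/- mice and 3.683, 8.843 and 2.115 CPM in miRNA-26b+/+ mice. Lep alone was highest in M2626 rather than in M2627, while M2630 came second as for the others. Its log2 fold change of 0.61 was the largest of the 10 and also had the widest interval, -0.60 to 1.81 (SE 0.56, edgeR adjusted p = 0.913).

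Cfd encodes complement factor D, also called adipsin, a serine protease of the alternative complement pathway that fat cells secrete. In miRNA-26b-/- mice Cfd was at 555.1, 1143 and 411.1 CPM, and in miRNA-26b+/+ mice at 444.8, 701.3 and 256.7 CPM. Both groups spanned more than their difference, and M2630 lay above M2626 and M2628. The means were 703 ± 388 and 468 ± 223 CPM (SD, n = 3 each). Cfd had the smallest p-value of the 10, 0.1001 before adjustment and 0.806 after it with edgeR, at a log2 fold change of 0.59 (SE 0.34, 95% interval -0.13 to 1.32).

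Retn encodes resistin, an adipokine that in mice comes from fat cells. Its levels were 35.79, 58.05 and 18.73 CPM in miRNA-26b-/- mice and 23.99, 51.2 and 16.62 CPM in miRNA-26b+/+ mice. The same 2 libraries, M2627 and M2630, stood out, and the log2 fold change was 0.34 (SE 0.40, 95% interval -0.52 to 1.19, edgeR adjusted p = 0.935).

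Plin1 encodes perilipin 1, which coats the lipid droplet and guards it against lipases, and Lipe encodes hormone-sensitive lipase, which cleaves diglycerides there once phosphorylated. Plin1 was at 85.04, 182.1 and 70.01 CPM in miRNA-26b-/- mice and at 111.4, 133 and 52.05 CPM in miRNA-26b+/+ mice. Lipe was at 93.19, 188.7 and 72.03 CPM and at 105.5, 151.2 and 58.23 CPM in the same order. The 2 genes ranked the 6 libraries alike, M2627 first and M2631 last. Their log2 fold changes were 0.20 (SE 0.34, 95% interval -0.52 to 0.92) and 0.19 (SE 0.33, -0.52 to 0.90), with edgeR adjusted p-values of 0.960 and 0.962. Of the 5886 exonic bases of Lipe, 918 are shared with an antisense gene, 4732471J01Rik, and without strand the reads of the 2 cannot be told apart there; no other gene of the 10 shares exonic bases with another gene.

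Lpl encodes lipoprotein lipase, which frees fatty acids from circulating triglyceride at the capillary wall. It was at 196.5, 621.9 and 283.7 CPM in miRNA-26b-/- mice and at 300.6, 349.9 and 158 CPM in miRNA-26b+/+ mice. M2627 was far above all other libraries, and the remaining miRNA-26b-/- values lay within the range of miRNA-26b+/+ mice. The log2 fold change of this gene, the only one of the 10 with a seed match, was 0.46 (SE 0.34, 95% interval -0.26 to 1.18, edgeR adjusted p = 0.866). Cd36 encodes a fatty acid transporter at the cell surface, with 100.7, 251 and 111.7 CPM in miRNA-26b-/- mice and 166.5, 245 and 55.15 CPM in miRNA-26b+/+ mice. Its highest library exceeded its lowest 4.55-fold, the widest span of the 10, yet the log2 fold change between the genotypes was 0.0075 (SE 0.40, 95% interval -0.85 to 0.86, edgeR adjusted p = 0.997). Fabp4 encodes the fatty acid carrier protein of the fat cell cytoplasm. Its levels were 427, 946.1 and 242.1 CPM in miRNA-26b-/- mice and 496.2, 656.9 and 247.6 CPM in miRNA-26b+/+ mice. Fabp4 was the only gene of the 10 to be lowest in M2628, and its log2 fold change was 0.21 (SE 0.38, 95% interval -0.60 to 1.02, edgeR adjusted p = 0.965).

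Pparg was at 12.68, 26.47 and 12.15 CPM in miRNA-26b-/- mice and at 20.37, 20.81 and 9.715 CPM in miRNA-26b+/+ mice. It varied least of the 10, by 2.72-fold between the highest and the lowest library, and 2 of 3 miRNA-26b-/- mice lay below 2 of 3 miRNA-26b+/+ mice. The log2 fold change was 0.056 (SE 0.38, 95% interval -0.76 to 0.87, edgeR adjusted p = 0.993).

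**Figure D2:**
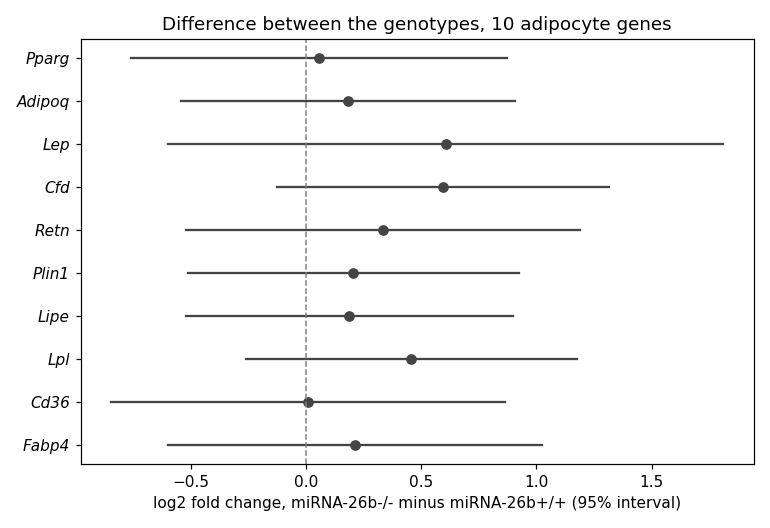
Log2 fold change between the genotypes (horizontal axis, points, miRNA-26b-/- minus miRNA-26b+/+) with its 95% interval from edgeR's quasi-likelihood fit (lines) for each gene (vertical axis). All 10 points lie above 0 and all 10 intervals hold 0, that of Cfd reaching down to -0.13 and that of Lep up to 1.81.

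Taking the 6 genes grouped as more restricted to fat cells together, their summed level was 860.2, 1760 and 648.7 CPM in miRNA-26b-/- mice and 784.4, 1194 and 441.1 CPM in miRNA-26b+/+ mice. The group means differed by 283.1 CPM, less than the SD of either group (590.3 and 377.1 CPM). Without M2627 the difference was -52.19 CPM, and without M2628 it was 503.6 CPM. The sum was 3.99-fold higher in M2627 than in M2631, a wider range than the difference between the genotypes. Of the 1760 CPM in M2627, Cfd alone held 1143 CPM.

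That library pattern was shared by nearly all of the 10 genes. M2627 was highest for 9 genes, M2630 was second for 10 and M2631 was lowest for 9. M2627 and M2630 were the 2 highest libraries for 9 of the 10 genes but for only 7.53% of all genes tested. The SD over the 6 libraries in log2(CPM + 0.5) was 0.54 to 0.84, larger than in 82.3% to 95.3% of the 11676 genes with a mean of at least 5 CPM, whose median SD was 0.32. The genes nearest to Adipoq in this pattern were sought among those 11676 genes, by the root mean square difference of log2(CPM + 0.5), each gene centred on its own mean over the 6 libraries. Lipe was the nearest of all, with a difference of 0.0685, and Plin1 the third. Pparg ranked 11, Cfd 28, Fabp4 33, Retn 49, Lpl 58 and Cd36 70, whereas Lep ranked 1399 with a difference of 0.508. Outside the 10, the genes closest to Adipoq were Ces1f (0.0865), Gstz1, Lpin1, Gpx3, Amy1, Kcna5, 2310039H08Rik, Acaa2, Clp1 and Cebpa (0.206). For Lep they were Micu3, Ube2s and Eno3 (0.178 to 0.193). Cfd was closest to 1700037H04Rik (0.1), Car3 and Hp, and Retn to Chchd10 (0.123), 4931406C07Rik and Slc25a10. The nearest to Plin1 were Amy1 (0.116), Acaa2 and Ces1f, and to Lipe Amy1 (0.116), Ces1f and Gstz1. Pparg lay nearest to Slc16a1 (0.0892), Acaa2 and Amy1, and Lpl to Kcna5 (0.134), Phgdh and Pde2a. For Fabp4 the nearest were Cd300lg (0.148), Atp8a1 and Tenm4, and for Cd36 Klhdc7a (0.168), Aqp7 and Tbc1d4. Cd300lg and Aqp7 stand in the list of capillary endothelium, and Aqp7 stands also in that of the lipid droplet and lipolysis.

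**Figure D3:**
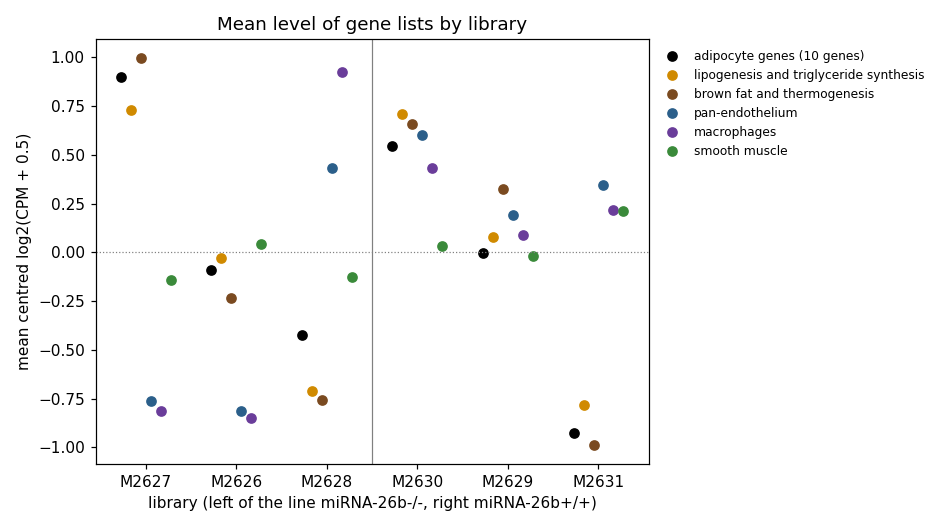
Mean level of 6 gene lists in each library (horizontal axis, miRNA-26b-/- left of the line), as the mean over the list's genes of log2(CPM + 0.5) centred on each gene's own mean (vertical axis). The means of the adipocyte, lipogenic and brown fat lists are highest in M2627 and M2630, whereas those of the endothelial and macrophage lists are lowest in M2626 and M2627.

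Markers of other cells that make Fabp4, Cd36, Lpl or Pparg took different courses across the libraries. Fabp4 and Cd36 are themselves in the capillary endothelial list, so they were removed from it after the values were seen. The mean centred log2 CPM of the 10 capillary genes left was still highest in M2627 (0.95) and M2630 (0.56) and lowest in M2631 (-1.05). Of the 10, 5 had M2627 and M2630 as their 2 highest libraries, among them Aqp7, which stands also in the list of the lipid droplet and lipolysis. The summed level of the 10 capillary genes left, most of it from Aqp1 and Sparcl1, was 796.6, 1066 and 877.8 CPM in miRNA-26b-/- and 984.7, 963.9 and 994.8 CPM in miRNA-26b+/+ mice. This sum was highest in M2627 but lower in M2630 than in the other miRNA-26b+/+ mice. In contrast, the sums of the 10 genes of all endothelium and of 12 macrophage genes were low in M2626 and M2627. The macrophage sums there were 393.7 and 469.4 CPM against 683.9 to 1187 CPM in the other 4 libraries. Not every gene followed: Kdr was at 22.01 and 29.62 CPM in M2626 and M2627 and at 8.817 to 31.75 CPM in the other 4. Flt1, Egfl7 and Cd68 overlapped likewise. The sum for sympathetic neurons was highest in M2627 and second in M2630, as for the fat cell genes. The part of these cells in the levels of Fabp4, Cd36, Lpl and Pparg was not tested.

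Genes of brown fat were present as well. Ucp1, which uncouples respiration to make heat, was at 90.62, 213.2 and 33.11 CPM in miRNA-26b-/- mice and at 88.92, 114.8 and 29.64 CPM in miRNA-26b+/+ mice, the same order of libraries as for Adipoq at the top. Of the 12 brown fat genes tested, 0 passed an unadjusted p-value under 0.05. M2627 and M2630 were the 2 highest libraries for 7 of them, and the others did not share this pattern. Prdm16, a coregulator of the brown fat programme, was lowest in M2627 (98.81 CPM) and highest in M2628 (156.3 CPM), with a log2 fold change of -0.012. Dio2, which activates thyroid hormone, was lowest in M2626 (34.97 CPM) and highest in M2628 (150.3 CPM), with -0.14. Zic1, a marker of classical brown fat, had 0 counts in 5 of the 6 libraries, and Fgf21 had 0 in all 6. The label of fat cells thus rests on markers that were detected in every library; that the cells lay around the vessel cannot be seen from counts.

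Among 10 other transcription factors of fat cell differentiation, 0 passed an unadjusted p-value under 0.05, 5 had log2 fold changes above 0 and 5 below. Srebf1, which drives lipid synthesis, was the most abundant, at 150.5 to 192.1 CPM in miRNA-26b-/- and 113 to 151.2 CPM in miRNA-26b+/+ mice (log2 fold change 0.32, edgeR adjusted p = 0.776). Rxra, the partner of PPARG, had 0.019 and Ebf1 -0.0078. Cebpa, which acts with Pparg in differentiation, was at 47.65, 127.8 and 66.68 CPM and at 61.34, 112.8 and 36.75 CPM, and had 0.23. Of 14 coregulators and partners of PPARG, Ppargc1b passed an unadjusted p-value under 0.05, lower in miRNA-26b-/- mice at 1.171, 1.965 and 1.31 CPM against 5.476, 8.26 and 2.908 CPM (log2 fold change -1.85, SE 0.70, edgeR adjusted p = 0.736). The nuclear corepressor Ncor1 and the coactivator Ncoa3 had log2 fold changes of -0.34 and -0.26.

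Of 14 genes of the lipid droplet and lipolysis, 0 passed an unadjusted p-value under 0.05 and 12 had log2 fold changes above 0. Those with the highest level were Cav1 (0.0079), Plin4 (-0.14) and Pnpla2, the lipase that acts before Lipe on triglyceride (0.0063). Of 12 genes around fatty acid uptake and lipoprotein lipase, Angptl4 passed, lower in miRNA-26b-/- mice (-0.81, SE 0.36, edgeR adjusted p = 0.750). Angptl4, which inhibits lipoprotein lipase, was at 11.16, 47.63 and 29.78 CPM in miRNA-26b-/- and 44.56, 74.96 and 41.34 CPM in miRNA-26b+/+ mice, with M2627 above 2 miRNA-26b+/+ mice. Vldlr, Slc27a4 and Slc27a1 had log2 fold changes of -0.020, 0.20 and 0.61.

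Of 13 further adipokines, 2 were higher and 2 lower in miRNA-26b-/- mice at an unadjusted p-value under 0.05, and 0 after adjustment. Sfrp5, a secreted inhibitor of Wnt signalling, was higher (9.483, 24.26 and 7.472 CPM against 3.194, 7.969 and 4.098, log2 fold change 1.51, edgeR adjusted p = 0.736). C1qtnf9, a relative of adiponectin, was higher without overlap (6.088, 9.497 and 5.489 CPM against 2.608, 4.112 and 1.95, 1.33, edgeR adjusted p = 0.741). Nampt, an enzyme of NAD synthesis, was lower without overlap (-0.45, edgeR adjusted p = 0.736), and Lcn2, a carrier of siderophores, was lower at no more than 5.167 CPM in any library (-2.32, adjusted p = 0.769). Rarres2 and Rbp4, among the most abundant, had 0.20 and 0.048. Of 9 receptors for adipokines and insulin, 0 passed, and the receptors for adiponectin Adipor1, Adipor2 and Cdh13 had log2 fold changes of 0.043, -0.032 and -0.11. Of 8 genes of fat cell progenitors, 0 passed and 0 had M2627 and M2630 as their 2 highest libraries.

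Since the level of Adipoq differed so much between libraries, each gene was also divided by Adipoq in its own library, a comparison chosen after the values were seen. Lipe stayed at 0.998 to 1.14 times Adipoq and Plin1 at 0.893 to 1.17 times in all 6 libraries. Cfd was at 6.8, 6.35 and 5.69 times Adipoq in miRNA-26b-/- mice and at 4.69, 4.71 and 4.63 times in miRNA-26b+/+ mice. The groups did not overlap, with means of 6.28 ± 0.558 and 4.68 ± 0.0387 (SD, n = 3 each, exact permutation test, two-sided, p = 0.1, the smallest it can give). Divided by Plin1 or by Lipe instead, Cfd also did not overlap between the groups. Of the 9 genes set against Adipoq, Cfd was the only one without overlap, beside 2.95% of all genes. Lpl ranged from 2.41 to 3.93 times Adipoq in miRNA-26b-/- and from 2.35 to 3.17 times in miRNA-26b+/+ mice, and Lep, Retn, Fabp4, Cd36 and Pparg overlapped likewise.

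Some enzymes that build fatty acids were lower relative to Adipoq in miRNA-26b-/- mice. Of 17 genes of lipogenesis and triglyceride synthesis, 0 passed an unadjusted p-value under 0.05 in CPM. With a library left out, 6 were lower without M2627 and 2 without M2631, while the number higher ran from 0 to 3. Divided by Adipoq, 4 of the 17 were lower without overlap, beside 287 of the 16016 genes compared in the whole table. These 4 share their libraries and the Adipoq denominator, so they are not 4 independent results. Scd1, which desaturates newly made fatty acids, was at 23.9, 22.9 and 16.4 times Adipoq in miRNA-26b-/- mice and at 38.3, 40.1 and 29.6 times in miRNA-26b+/+ mice. Fasn, which makes palmitate, was at 17.3, 15 and 12.3 times and at 22.4, 28.3 and 19.9 times. The other 2 were Acaca and Acly, the enzymes before Fasn in the pathway, which overlapped when divided by Plin1. Acaca, Elovl6, Cidec and the ratio itself were singled out after their values were seen. Cidec, a droplet protein of fat cells, was higher relative to Adipoq without overlap, at 1.17, 1.22 and 1.26 times against 0.972, 1 and 0.672 times.

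**Figure D4:**
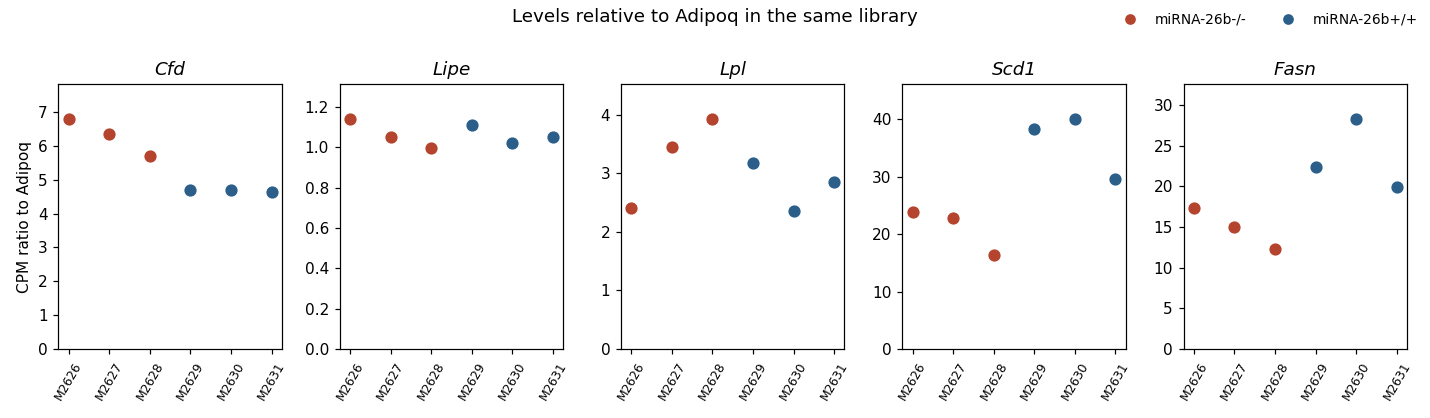
CPM of Cfd, Lipe, Lpl, Scd1 and Fasn divided by that of Adipoq in the same library (vertical axes, starting at 0), by library (horizontal axes); each point is 1 mouse. Cfd lies higher and Scd1 and Fasn lower in all 3 miRNA-26b-/- libraries, whereas Lipe and Lpl overlap.

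The same question was put to the whole table by adding the mean log2 CPM of Adipoq, Plin1 and Lipe as a covariate to the edgeR fit, also chosen after the data were seen. In that fit 6.53% of all genes had an unadjusted p-value under 0.05 and 4 genes, which is 0.025%, an adjusted one under 0.05: Gm15564, Scd1, Hspb1 and Mbp, the last of which encodes myelin basic protein and is in the Schwann cell list. With the covariate, 7 of the 9 Schwann cell genes and 4 of the 8 fast skeletal muscle genes were higher in miRNA-26b-/- mice at an unadjusted p-value under 0.05, and the part of these cells in the ratios to Adipoq and in this fit was not tested. Of the 7 genes of the 10 not in the covariate, Cfd was higher at an unadjusted p-value under 0.05 (log2 fold change 0.41, SE 0.13, 95% interval 0.14 to 0.68, edgeR adjusted p = 0.624). The interval of Cfd also lay above 0 with Adipoq alone as the covariate (0.42, 95% interval 0.15 to 0.70) and with each of the 6 libraries left out in turn (log2 fold change 0.36 to 0.46), whereas it held 0 with Cidec and Adrb3 as the covariate (0.16, 95% interval -0.17 to 0.48, edgeR adjusted p = 0.901). Fabp4 had -0.069, Cd36 -0.12, Pparg -0.14, Retn 0.13, Lpl 0.25 and Lep 0.47, each with an interval that held 0. Of the 17 lipogenic genes, 5 were lower at an unadjusted p-value under 0.05 (Scd1, Fasn, Elovl6, Acaca and Acly) and 0 higher. Scd1 had a log2 fold change of -0.82 (SE 0.12, 95% interval -1.09 to -0.56, edgeR adjusted p = 0.0413) and Fasn one of -0.70 (SE 0.14, edgeR adjusted p = 0.199). The log2 fold change of Scd1 was -0.81 with Adipoq alone as the covariate, -1.01 with Cfd, Fabp4 and Retn and -1.15 with Cidec and Adrb3. Of these genes, Cfd and Cidec were themselves higher relative to Adipoq in miRNA-26b-/- mice, so these fits are not independent of that difference. In the same order the edgeR adjusted p of Scd1 was 0.105, 0.00365 and 0.00664. With a library left out, it was 0.0135 without M2626 and 0.00183 without M2628, but 0.614 without M2627, 0.431 without M2629, 0.999 without M2630 and 0.274 without M2631, while the log2 fold change stayed between -0.97 and -0.73. Without the covariate Scd1 had -0.63 (SE 0.40, edgeR adjusted p = 0.844), at 1948, 4120 and 1184 CPM in miRNA-26b-/- and 3633, 5974 and 1641 CPM in miRNA-26b+/+ mice.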

How the data were processed

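RNA-seq libraries of 3 mice of each genotype, miRNA-26b-/- and miRNA-26b+/+, were compared, grouped by the labels. The authors aligned reads with STAR to GRCm38 (mm10) and deposited raw counts per gene name from featureCounts 1.6.4, unstranded, a read over more than 1 gene being counted for every such gene; the header names GENCODE M21 and the methods M23. A second table holding the authors' normalized values, fold changes and p-values was not used. Nothing states separate extraction batches, and p-values measure the spread between these mice.

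Genes summing to 2 counts or more and with over 1 CPM in at least 2 libraries were scaled by TMM, and edgeR 4.0.16 (R 4.3.3) gave quasi-likelihood p-values, adjusted by Benjamini-Hochberg over all 16017. CPM use the TMM-scaled library size, and log2 levels a pseudocount of 0.5. The 10 genes were read from that fit, and the gene lists were described by counts and medians. Named are the 10 genes, each list's genes with an unadjusted p under 0.05 and its 3 most abundant, and the nearest genes in pattern; some genes that this rule names are not reported here. Members and lists were chosen with earlier results of these data known. Seed matches used GENCODE M21 transcripts; promoters and miRNAs came from RefSeq.

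In simulated counts for this comparison with 16017 genes, 78% of 100 genes changed by 1 on the log2 scale and 96% of 100 changed by 2 had an unadjusted p under 0.05, and 38% and 74% an adjusted one, against 6.37% of unchanged genes before adjustment. Alternatives were library size and upper quartile scaling, DESeq2 1.42.0, limma 3.58.1 voom, the likelihood ratio test, robust shrinkage, edgeR's earlier quasi-likelihood method, 2 other filters, a prior count of 2 and leaving out each library; the ratios to Adipoq and the covariate were added after seeing the data.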

Additional observations from a re-analysis of the deposited data

How the results depend on the processing

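No alternative took a gene of the 10 past an adjusted p-value of 0.05 in either direction; of 160 values, 143 kept their direction and 17 changed sign. With a library left out, the log2 fold change ran from -0.37 to 0.586 for Adipoq, 0.231 to 1.33 for Lep, -0.348 to 0.477 for Plin1, -0.482 to 0.563 for Fabp4, 0.048 to 1.01 for Cfd, -0.162 to 0.913 for Retn, -0.445 to 0.26 for Pparg, -0.163 to 0.749 for Lpl, -0.545 to 0.493 for Cd36 and -0.343 to 0.544 for Lipe; the lowest was without M2627 for all but Lep. Cd36 was at -0.00378 in DESeq2, -0.01 in the likelihood ratio test of edgeR and -0.00954 in its earlier quasi-likelihood method. With the covariate Fabp4 was at -0.069, Pparg at -0.138 and Cd36 at -0.12. The number of the 10 higher at an unadjusted p under 0.05 was 1 (Cfd) with the covariate and ran from 0 to 1 with a library left out (Lpl without M2626, and Cfd without M2628 or M2630). Over all genes, those with an adjusted p under 0.05 numbered 57 in DESeq2, 3 in limma voom, 19 in the likelihood ratio test, 3 with robust shrinkage, 0 with the earlier method and 4 with the covariate, beside 1, and from 0 to 82 with a library left out, most without M2628; at an unadjusted p they ran from 686 without M2631 to 1692 without M2628. With a library left out, lipogenic genes at an unadjusted p under 0.05 ran from 0 to 6 lower, 6 without M2627, and from 0 to 3 higher. Further adipokines ran from 0 to 3 higher and 0 to 2 lower. The lists of Angptl4 and Ppargc1b ran from 0 to 1 and 0 to 2 lower, and from 0 to 2 and 0 to 1 higher. The log2 fold change then ran from -0.911 to 0.154 for Acaca, -0.905 to 0.218 for Acly, -1.58 to 0.23 for Elovl6, -1.11 to 0.0515 for Fasn and -0.336 to 0.992 for Ucp1. The causes were not tested. No paired analysis was possible because the labels give no replicate numbers shared between the groups. With 3 mice per group, the 95% interval of each of the 10 genes held 0, so none of these differences could be told from 0. Each interval gives the range of differences that the data allow at that level.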
